A study of Rattus norvegicus with 6 samples.

Results

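The levels of 6 genes of the circadian clock were followed in rat hearts after cardiopulmonary bypass: the output factor Dbp, the activator Bmal1, and the repressors Per2, Bhlhe40, Bhlhe41 and Nr1d2. Each had 1 probe, found by its symbol in the platform annotation, so 6 of the 1185 probes on the array were members, and these 6 genes stood among 1103 named ones. The genes were selected from earlier results of the same CPB against sham values, in which Dbp was among the lowest differences, so their levels and differences are given as descriptions with no test. The study measured total RNA of the whole heart on 1 array per heart. The first group held 3 rat hearts subjected to bypass (CPB), in which a machine pumps and oxygenates the blood in place of heart and lungs, and the other held 3 hearts of sham-operated rats. The labels give no strain, sex, age, length of bypass or time of day of sampling, and nothing says whether animals were handled together.

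The circadian clock is a feedback loop of transcription that runs in nearly every cell, heart muscle included. BMAL1, paired with CLOCK, binds E-box sequences and switches on the Per and Cry genes, whose proteins then shut the pair down. The same E-boxes drive Bhlhe40 and Bhlhe41, also known as Dec1 and Dec2, which compete for them as repressors, and Nr1d2, or REV-ERB beta, which represses Bmal1 through ROR response elements. Dbp is a leucine zipper factor of the PAR family. It is switched on by the clock and passes its rhythm on to genes with D-box sites, among them Per2. In the heart, transcripts of this loop rise and fall with the time of day.

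The promoters were searched for the letters of the E-box, D-box and ROR sites named above. All 6 genes had an entry in the RefSeq promoter table (rat assembly GRCr8), which covers 250 bases before to 50 after an annotated start. The motifs searched on both strands were the E-box CACGTG, its variant CACGTT, the D-box core TTATGTAA and the ROR element core AGGTCA. A longer form, AAAGTAGGT, was added after the Bmal1 sequence had been seen, and its second match overlaps AGGTCA. Capitals mark the matches, and each line runs 5′ to 3′ on the strand of the gene.
Per2, D-box core: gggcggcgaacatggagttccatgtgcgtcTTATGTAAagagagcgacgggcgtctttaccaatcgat
Per2, E-box variant: aacgcgcgcggtCACGTTttccactatgtg
Bmal1, first ROR element: gattggtcggAAAGTAGGTtagtggtgcg
Bmal1, second ROR element: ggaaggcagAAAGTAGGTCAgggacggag
Bhlhe40, E-box: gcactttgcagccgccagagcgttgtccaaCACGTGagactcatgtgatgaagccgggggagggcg
Bhlhe41, E-box: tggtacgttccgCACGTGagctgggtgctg
Nr1d2, ROR element core: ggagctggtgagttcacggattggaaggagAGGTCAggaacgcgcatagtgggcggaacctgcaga

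The Per2 stretches lie at chr9:99497148-99497215 and chr9:99497038-99497067 on the minus strand, with the D-box match beginning 192 bases and the CACGTT match 62 bases before the start. The Bmal1 stretches lie at chr1:176766262-176766290 and chr1:176766299-176766327 on the plus strand, with matches beginning 56 and 20 bases before the start. The Bhlhe40 stretch lies at chr4:143174200-143174265 on the plus strand, 220 bases from match to start, and the Bhlhe41 stretch at chr4:180569386-180569415 on the minus strand, 48 bases from match to start. The Nr1d2 stretch lies at chr15:9954817-9954882 on the plus strand, 187 bases from match to start. The second Per2 stretch and those of Bmal1 and Bhlhe41 hold matches inside the outermost span RefSeq gives the gene, and the others lie upstream of that span. The Dbp window (chr1:105312006-105312305, plus strand) held none of these letters, and the Nr1d2 window held neither CACGTG nor CACGTT. Neither absence says anything about sites elsewhere in the gene.

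Of 33469 promoters of the same length, 6.42% held CACGTG, 4.83% held CACGTT and 16.2% held AGGTCA. TTATGTAA was in 0.893% of them and AAAGTAGGT in 0.197%. Per2 was thus the member with a D-box core and Bmal1 the member with the longer ROR form, and Bhlhe40 and Bhlhe41 were those with a CACGTG. These are matches of letters, and the array measured no binding.

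The deposited values carry few distinct levels for dim probes. Each array had its own lowest level, the linear values rose from it in whole multiples of a fixed step, and between 10.7% and 47.3% of probes were at that level. Levels below are log2 intensities after quantile normalization, unless another scale is named. The number of arrays limits the precision of every difference. Of the 22 cardiomyocyte markers listed, 7 were measured, all above the lowest level in every heart. The contractile genes Myh6 and Tnnt2 ranked at or above the 99.9th percentile of probes on every array.

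**Figure D1:**
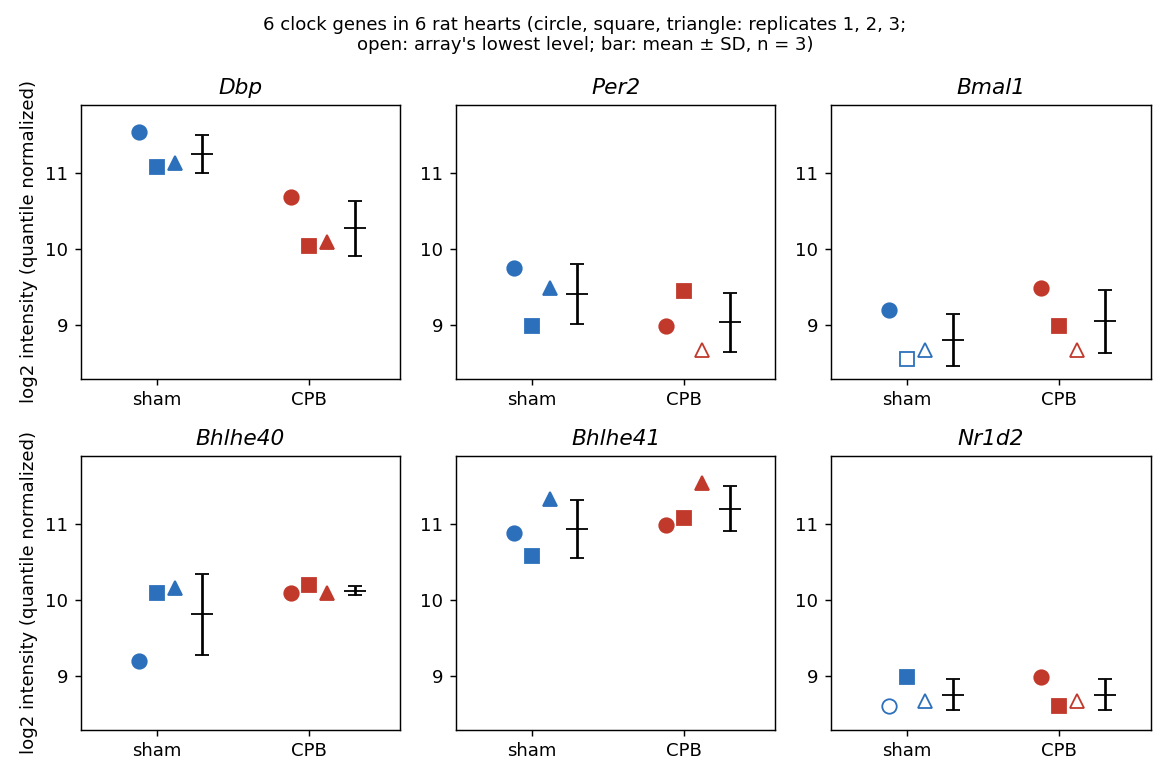
Quantile-normalized log2 intensity of each gene in every heart, with sham hearts on the left and CPB hearts on the right of each panel; bars give the mean ± SD of 3 hearts and open points lie at the array's lowest level. The 3 Dbp values of CPB hearts (10.05 to 10.69) lie under all 3 of sham hearts (11.08 to 11.54), and the other 5 genes overlap.

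Dbp was lower in all 3 CPB hearts. Its log2 intensity (probe RA0484) was 10.69, 10.05 and 10.09 in CPB replicates 1, 2 and 3, and 11.54, 11.08 and 11.13 in sham replicates 1, 2 and 3. The highest CPB value lay 0.39 under the lowest sham value, so the groups did not overlap. The means were 10.28 ± 0.36 (SD, n = 3) and 11.25 ± 0.25 (SD, n = 3), a log2 difference of -0.98 (SE 0.32), which is 1.97-fold lower in CPB hearts. Of all 1185 probes, 6 had a difference at least as low, Dbp included.

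The same separation appeared in ranks within each array, on which quantile normalization also rests. It appeared too in linear units above the lowest level, which keep each array's own scale. Ranked among the probes of its own array, Dbp stood at the 82.7th, 72.0th and 73.2th percentiles in CPB hearts and at the 90.8th, 86.9th and 87.5th in sham hearts. Above each array's lowest level it reached 1345, 721 and 637 linear units in CPB hearts and 2496, 1827 and 1798 units in sham hearts, both sets in replicate order. With that level subtracted the log2 difference was -1.24. Between hearts of the same replicate number the normalized differences were -0.85, -1.04 and -1.04, so Dbp was lower by a similar amount for each number.

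Median scaling was the exception. There CPB replicate 1 (11.34) lay above all 3 sham hearts (10.64 to 11.28), the groups overlapped, and the difference was -0.62. The median probe of an array lay 1 to 3 steps above the lowest level, and the 75th percentile 2 to 10 steps. Scaling to the 75th percentile, added after seeing the data, gave -0.82 with the groups apart.

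**Figure D2:**
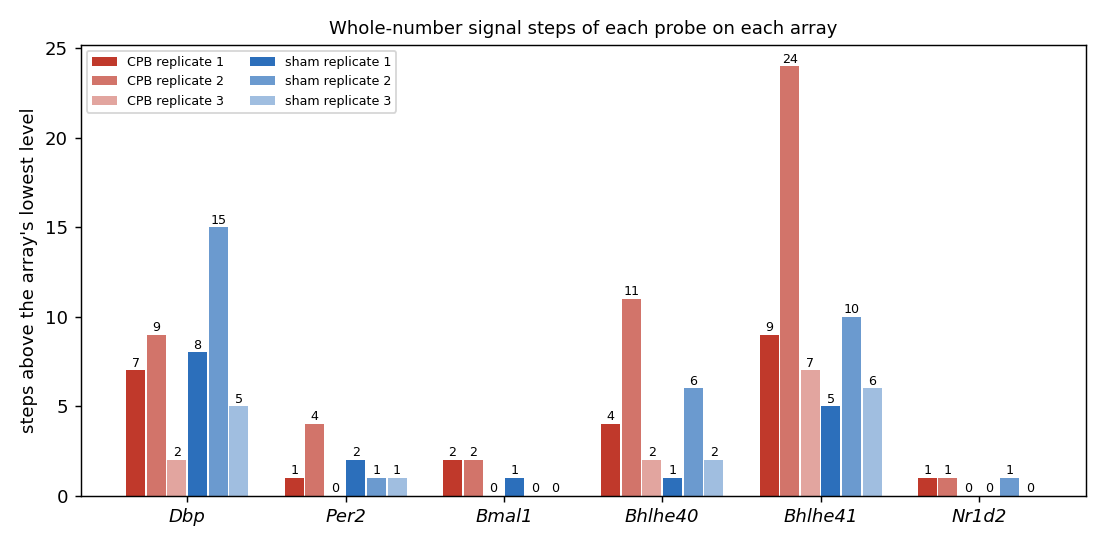
Whole-number steps of each probe above the lowest level of its array, by heart (red CPB, blue sham, paler from replicate 1 to 3). Step size differs between arrays, so heights compare only within an array; Nr1d2 never passes 1 step and Bmal1 never passes 2.

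Of the 6 genes, Dbp alone had groups that did not overlap after quantile normalization. Over all probes, 2.62% had CPB values entirely under the sham values and 1.6% entirely above them. Among the 498 probes above the lowest level on all arrays the lower share was 3.21%, and in the values as deposited it was 3.12%. Since the genes were picked with this contrast known, the count carries no weight beyond the description. The fit over all probes (limma, Benjamini-Hochberg) called 0 of 1185, or 0%, with 35 at an unadjusted p under 0.05 and a smallest adjusted p of 0.371. That count of 35 was 20 after median scaling, 21 without CPB replicate 1 and 72 without sham replicate 2.

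The Period gene Per2, a repressor that carries E-box and D-box letters in the stretches above, was dim. Probe RA1096 read 8.99, 9.45 and 8.68 in CPB replicates 1, 2 and 3, and 9.76, 8.99 and 9.49 in sham replicates 1, 2 and 3. The groups overlapped: CPB replicate 2 lay above sham replicate 2. The means were 9.04 ± 0.39 and 9.41 ± 0.39 (SD, n = 3), a difference of -0.37 (SE 0.35), about the size of the spread within a group. On the CPB arrays Per2 was 1, 4 and 0 steps over the lowest level, on the sham arrays 2, 1 and 1, and 1 step was worth 0.18 to 0.67 log2 units there. Replicate numbers 1 and 3 differed downwards (-0.77 and -0.81) and number 2 upwards (0.46), so Per2 did not repeat the pattern of Dbp in every pair of hearts.

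Bmal1, the activator of the loop, lay close to the limit of the array. Probe RA0306 read 9.49, 8.99 and 8.68 in CPB replicates 1, 2 and 3, and 9.20, 8.56 and 8.68 in sham replicates 1, 2 and 3. It was at the lowest level in CPB replicate 3 and in sham replicates 2 and 3, and at most 2 steps above it elsewhere. The difference was 0.24 (SE 0.27) with overlapping groups, and 0.04 in the values as deposited. Without CPB replicate 1, the heart with the highest value, it was 0.003, so that heart carries it.

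Nr1d2, the nuclear receptor that represses Bmal1, had no measured level on 3 of the 6 arrays. Probe RA0741 was at the lowest level in CPB replicate 3 and in sham replicates 1 and 3, and 1 step above it in the other hearts. The normalized values were 8.99, 8.61 and 8.68 in CPB hearts and 8.61, 8.99 and 8.68 in sham hearts. These are the same 3 values in another order, so the difference was 0. Normalized values this low depend on how many probes tie at the lowest level. CPB replicate 2, 1 step above that level, read the same as sham replicate 1, which was at it. As deposited it was -0.17 and after median scaling 0.22. A difference of 1 step at these levels was worth 0.30 to 0.78 log2 units, so a smaller change in Nr1d2 was not detectable here.

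The paired repressors Bhlhe40 and Bhlhe41 were both measured above the lowest level in every heart. Bhlhe40 (probe RA0295) read 10.09, 10.20 and 10.09 in CPB replicates 1, 2 and 3, and 9.20, 10.09 and 10.16 in sham replicates 1, 2 and 3. Apart from sham replicate 1 the hearts lay within a narrow band on this scale, and that heart stood below them at 1 step above the lowest level. The band was wider as deposited (9.88 to 10.32) and after median scaling (9.73 to 10.65), with sham replicate 1 still the lowest. In the hearts of the band 1 step was worth 0.10 to 0.36 log2 units. The means were 10.13 ± 0.06 and 9.82 ± 0.53 (SD, n = 3), a difference of 0.31 (SE 0.36). Without sham replicate 1 it was 0.02, so that single heart carries the quantile-normalized difference.

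Bhlhe41 (probe RA0294) read 10.99, 11.08 and 11.54 in CPB replicates 1, 2 and 3, and 10.88, 10.58 and 11.33 in sham replicates 1, 2 and 3. The groups overlapped, with the third heart of each group the highest. The means were 11.20 ± 0.29 and 10.93 ± 0.38 (SD, n = 3), a difference of 0.27 (SE 0.32). Each CPB heart was higher than the sham heart of its number (by 0.10, 0.50 and 0.20), though in the values as deposited number 1 differed by -0.07. After median scaling all 3 CPB values (10.97 to 11.67) lay above the sham values (10.70 to 10.85), with a difference of 0.56. The normalized difference of 0.27 fell to 0.08 without CPB replicate 3 and to 0.09 without sham replicate 2, so its size rests on single hearts.

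**Figure D3:**
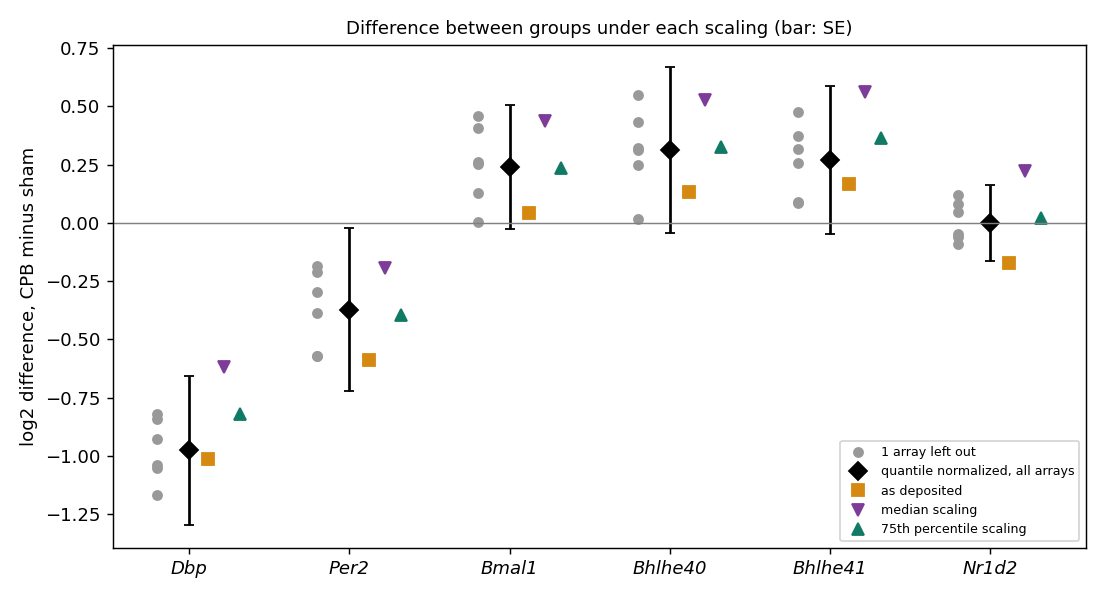
Log2 difference, CPB minus sham, for each gene under quantile normalization (black diamond with its SE), as deposited, after median or 75th percentile scaling, and with 1 array left out at a time (grey). Dbp runs from -1.17 to -0.62 and Per2 from -0.59 to -0.18, Bmal1, Bhlhe40 and Bhlhe41 stay at or above 0.00, and Nr1d2 lies on both sides of 0.

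Set together after quantile normalization, 2 of the 6 genes had a lower mean in CPB hearts (Dbp and Per2). Another 3 had a higher one (Bmal1, Bhlhe40 and Bhlhe41), and Nr1d2 was equal on that scale. Over all probes 52.5% had a lower and 42.3% a higher mean. The median of the 6 differences was 0.12, against -0.03 over all probes. The scalings move the median of all probes, to -0.29 as deposited, 0.11 after median scaling and -0.09 after 75th percentile scaling. Relative to that median Dbp was at -0.95 after quantile normalization. Under the 3 other scalings, which give each array a single factor or none, Dbp was at -0.73 relative to it, Per2 at -0.30, Bmal1 at 0.33, Bhlhe40 at 0.42, Bhlhe41 at 0.46 and Nr1d2 at 0.12. The signs of the differences themselves were the same under all 4 scalings for all but Nr1d2.

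The grid sets a floor to what can be read from these differences. In the values as deposited, Dbp differed by -1.01. Moving every CPB value up and every sham value down by 0.5 of a step left -0.83, and the opposite move gave -1.21. The same moves gave -0.06 and -1.16 for Per2, 0.32 and 0.02 for Bhlhe41, and values on both sides of 0 for Bmal1, Bhlhe40 and Nr1d2.

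Set against the Bhlhe probes of the same array, Dbp was also lower in CPB hearts. The log2 ratio of Dbp to Bhlhe40, centred on its mean over the 6 hearts, was -0.19, -0.95 and -0.79 in CPB replicates 1, 2 and 3, and 1.55, 0.20 and 0.18 in sham replicates 1, 2 and 3. For Dbp over Bhlhe41 it was 0.01, -0.73 and -1.14 in CPB hearts and 0.96, 0.80 and 0.10 in sham hearts. Both ratios were lower in every CPB heart than in any sham heart, also in the values as deposited, and an array's scaling factor cancels in them there. They differed between groups by -1.29 and -1.24, and by -1.15 and -1.18 as deposited. Both ratios reuse the Dbp values, so they are no separate observation. For Dbp over Bhlhe41, CPB replicate 1 (0.01) and sham replicate 3 (0.10) lay closer than 1 step of either probe there (0.14 to 0.21 log2 units). The highest ratio of Dbp to Bhlhe40 came from sham replicate 1, where Bhlhe40 was 1 step above the lowest level. The ratio of Bhlhe40 to Bhlhe41 differed by 0.04 with overlapping groups.

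**Figure D4:**
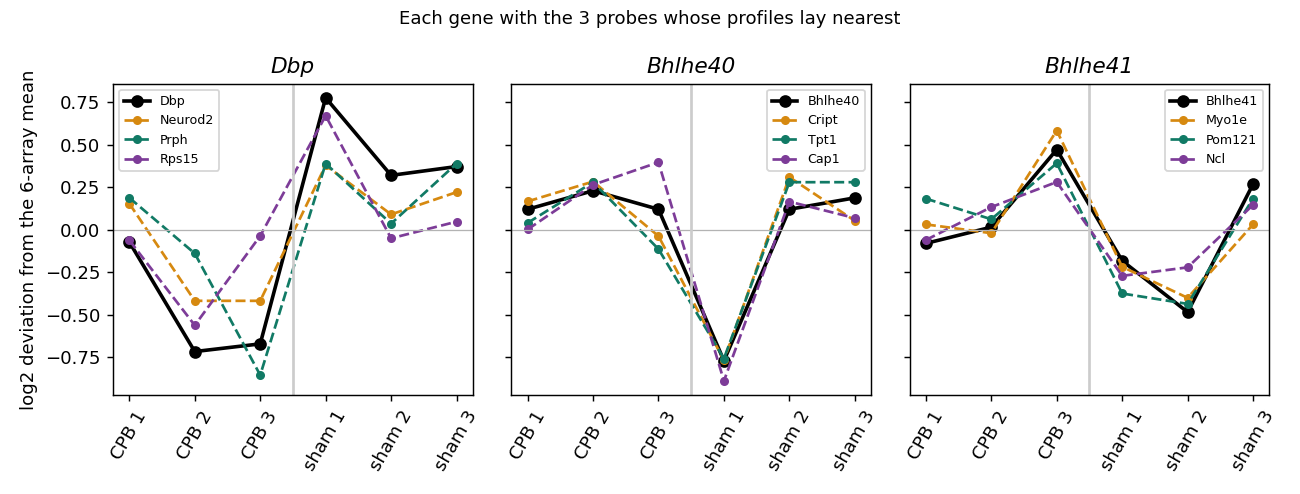
Log2 deviation from the 6-array mean by heart for Dbp, Bhlhe40 and Bhlhe41 (black) and for the 3 named probes with the nearest profiles (colours); lines only join the points of 1 probe, and CPB hearts are left of the grey line. Dbp is above its mean in the 3 sham hearts and below it in the 3 CPB hearts, while Bhlhe40 dips in sham replicate 1 alone.

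Likeness of profiles was measured as the root mean square difference between centred log2 values over the 6 hearts, among 468 other named probes above the lowest level on all arrays. Nearest to Dbp were Neurod2, a neuronal basic helix-loop-helix factor (0.27), Prph, the intermediate filament peripherin of peripheral neurons (0.33), and the ribosomal protein gene Rps15 (0.34), where the median probe lay at 0.65. Neurod2 was dim, at 1 to 5 steps above the lowest level, with Prph at 2 to 19 steps and Rps15 at 14 to 50. Their own differences, -0.46 (SE 0.34), -0.54 (SE 0.33) and -0.44 (SE 0.30), were smaller than that of Dbp, and none of them passed the threshold in the fit over all probes, nor did Dbp. By this measure Bhlhe41 was the 343rd and Bhlhe40 the 396th nearest to Dbp, so most of these probes lay nearer to it than either.

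Nearest to Bhlhe40 were Cript (0.12), the translation-associated gene Tpt1 (0.13) and a Cap1 probe (0.14), against a median of 0.45. Tpt1 was bright, at 57 to 636 steps, and also dipped in sham replicate 1 (-0.76). Since it was picked for its likeness to Bhlhe40, that dip is no separate observation. Nearest to Bhlhe41 were the myosin gene Myo1e (0.12), the nuclear pore gene Pom121 (0.14) and the nucleolin gene Ncl (0.15), against a median of 0.43. Bhlhe41 was the 161st nearest to Bhlhe40.

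The rest of the clock was thinly covered. Of 43 listed genes (activators, repressors, PAR factors, and kinases, ligases and cofactors), 8 were measured, the 6 above with Rorb and Timeless, and 0 passed the test in either direction (limma). The median difference of the 8 was 0.12, against -0.03 over all probes, but its sign turned in the values as deposited (-0.22, against -0.29 over all probes) and without CPB replicate 1 (-0.04). Rorb, a nuclear receptor that binds ROR elements, was at the lowest level in 5 hearts, all but CPB replicate 3. Timeless, known in mammals mostly for replication fork protection, was at it in all CPB hearts and 2 sham hearts. No fold is given for either (limma adjusted p = 0.909 for both).

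Of 18 listed genes of clock input and cyclic AMP response, 6 were measured, 6 had a lower mean in CPB hearts and 0 passed the test (median -0.17), where 52.5% of all probes had a lower mean and their median was -0.03. After median scaling 4 of the 6 (Adcyap1r1, Crem, Nr4a2 and Nr4a3) had a higher mean, so the shared direction depends on the scaling. The cyclic AMP response modulator Crem was at 11.03 ± 0.81 in CPB and 11.28 ± 0.54 in sham hearts (SD, n = 3), a difference of -0.25 (SE 0.40; limma adjusted p = 0.997) that became 0.15 after median scaling. The orphan receptor Nr4a2 differed by -0.09 (SE 0.35), and by 0.36 after median scaling. The other 4 (Adcyap1r1, Avp, Egr2 and Nr4a3) were at the lowest level on 2 to 5 arrays. Of 33 listed rhythmic output genes 4 were measured and 0 passed: Alas1, which starts haem synthesis, was at 0.39 (SE 0.45) and Myh6 at -0.10 (SE 0.30), which was 0.69 after median scaling. Alas1 was at the lowest level in sham replicate 3 and 1 step above it in CPB replicate 3, which limits its difference. Klf10 and Camkk2 were each at the lowest level in 2 CPB hearts and 1 sham heart and at most 2 and 1 steps above it elsewhere, so no fold is given for them.

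Glucocorticoids reset peripheral clocks, and of 17 listed genes they induce, 4 were measured and 0 passed. Cebpd, an acute-phase transcription factor, ranged widely, at 11.05 ± 2.13 in CPB and 10.39 ± 1.34 in sham hearts (SD, n = 3), and was at the lowest level in CPB replicate 3. The phosphatase Dusp1 differed by -0.71 (SE 0.40), the feedback inhibitor Errfi1 by 0.07 (SE 0.32; -0.03 as deposited) and glutamine synthetase (Glul) by 0.18 (SE 0.37; -0.04 as deposited). Glul was at the lowest level in CPB replicate 3 and in sham replicate 3. The median of these 4 was 0.12.

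No marker of another cell type passed the test (limma). The summed levels of 2 marker lists did not overlap between the groups after quantile normalization. Of single probes 2.62% lay entirely lower in CPB hearts, and no such share was taken for sums. The summed linear intensity of the fibroblast markers, of which 2 of 10 were measured (Sparc and Dcn), was 11310 to 21904 in CPB and 31583 to 36385 in sham hearts. That of the nerve and glia markers, with 4 of 11 measured (Gfap, Prph, S100b and Sox10), was 4025 to 4796 and 5220 to 6005. Of the fibroblast pair Sparc, at -1.50 (SE 0.33; limma adjusted p = 0.371), had groups apart and Dcn, at -0.51 (SE 0.44), did not. Sparc was the brighter in sham hearts (mean 14.64, against 12.97 for Dcn), so their fibroblast sum is mostly this 1 gene. In the nerve and glia list S100b differed by -0.06 (SE 0.34) and Prph by -0.54 (SE 0.33), both with overlapping groups. Gfap had groups apart at -0.28 (SE 0.29), and its difference was 0.05 after median scaling. Sox10 was at the lowest level on 2 arrays of each group, and 0 markers of these lists were at it on all arrays. Their part in the Dbp difference was not tested. The summed cardiomyocyte, smooth muscle (2 of 8 measured) and leukocyte (6 of 21 measured) markers overlapped between groups, and 0 of 10 endothelial markers were measured. Of the leukocyte markers 5 had a lower and 1 a higher mean in CPB hearts. The largest differences were those of S100a9, at -1.07 (SE 0.47), and Cd8a, at 0.92 (SE 0.47), both with overlapping groups. The cardiomyocyte sum is mostly Myh6 and Tnnt2, at the top of every array, where quantile normalization sets the same values, so its overlap shows little. Of the single cardiomyocyte markers, Pln (-0.28, SE 0.27) had CPB values under and Tnni3 (0.47, SE 0.28) above all sham values, and the others overlapped. After median scaling Pln turned to 0.19, and Tnni3 was at 0.82. In whole-heart RNA, fewer cells of a type and less RNA per cell cannot be told apart.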

How the data were processed

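Each heart was run on 1 array (3 CPB, 3 sham), with groups and numbers taken from the titles. The labels say no more on how the samples were drawn, so p-values set a difference against the spread between these samples, which may be technical. The authors deposited natural log values, a scale read from the numbers since no unit is stated: they are the inverse hyperbolic sine of a stepped linear level. Scanner and software, not given in the sources used here, are unknown.

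Values were returned to linear intensity (doubled hyperbolic sine), quantile normalized, taken to log2 with no pseudocount and fitted over all 1185 probes (limma 3.58.1 in R 4.3.3, variance trend, two-sided, Benjamini-Hochberg, threshold 0.05), after the fit was tested on simulated data. Values at the lowest level of an array were kept as measured. An exact permutation of 3 against 3 cannot go below p = 0.1.

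The 6 genes and the lists were chosen with earlier results of these data known. Named genes were the 6, all measured genes of the clock, clock input and glucocorticoid lists, cardiomyocyte markers, and the 3 probes nearest in profile to each member above the lowest level on all arrays. Rhythmic output genes and markers of other cells were named after their values were seen. Symbols of all 6 matched RefSeq by gene identifier.

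The replicate numbers are shared between groups. Deviations from the group means of same-numbered arrays correlated over probes at 0.240, 0.277 and 0.296, and at 0.0584, 0.300 and 0.442 as deposited. Differently numbered arrays correlated at -0.212 to -0.042 after normalization. As deposited, CPB replicate 1 correlated more with sham replicate 2 (0.199) than with sham replicate 1. The percentages of probes at the lowest level, CPB then sham, were 27.4 and 25.9 for number 1, 10.7 and 20.5 for number 2, and 47.3 and 43.3 for number 3. The numbers may thus pair hearts or only arrays, which cannot be told apart from the data alone. A fit blocked on the number was an alternative. Others were median scaling, no normalization beyond the deposit, the 25th percentile as a pseudocount, only probes above the lowest level, no variance trend and leaving out each array. Scaling to the 75th percentile and subtracting the lowest level were added after seeing the data.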

Additional observations from a re-analysis of the deposited data

How the results depend on the processing

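The count of probes past the threshold was 0 in the main analysis. It was 1 in the values as deposited and 0 to 1 when an array was left out (1 without CPB replicate 1). The replicate block, median scaling, the pseudocount, the filter and the fit without a variance trend gave 0. The clock genes past the threshold numbered 0 throughout. With the replicate block the Dbp difference was -0.98 with an SE of 0.11 in place of 0.32, and no call changed by pairing. Dbp was lower under all 12 settings listed at the start and the 2 added after seeing the data. It ran from -1.24 (lowest level subtracted) to -0.62 (median scaling), and from -1.17 to -0.82 with an array left out. The replicate block, the filter and the fit without a variance trend cannot change the difference itself (-0.98 in each). Their sign was therefore fixed in advance and adds nothing to that count. Only 3 of the 6 genes were above the lowest level on all arrays, 1 of them lower, so Per2, Bmal1 and Nr1d2 have no value under that filter. The cause of the differences between scalings was not tested, and the coarse steps limit dim probes.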
